A study of Mus musculus with 6 samples.

Results

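Lipid droplet and lipolysis transcripts were measured in the livers of insulin-resistant mice given insulin or its vehicle. The set held 10 genes, chosen by gene name from the 54532 genes of the count table. They were 3 perilipins that coat the droplet (Plin2, Plin4 and Plin5), 3 CIDE proteins (Cidea, Cideb and Cidec), 2 lipases (Pnpla2 and Lipe), the lipase cofactor Abhd5 and the lipase inhibitor G0s2. All 10 passed the filter on low counts and were among the 13377 genes tested.

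Liver RNA was sequenced from 6 male C57BL/6J mice that were 8 weeks old when a high-fat diet began and that ate it for 6 weeks, which made them insulin resistant (IR). The mice were fasted for 16 h. Insulin was then given i.p. to 3 of them (0.75 units/kg, IR insulin) and bovine serum albumin, the carrier, to the other 3 (IR vehicle), and 6 h later the livers were removed. The libraries came from separate mice, numbered 1 to 3 in each group. All mice shared the diet and the fast, and no mouse without insulin resistance is analysed here, so the comparison asks only what insulin did in IR livers.

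Hepatocytes store triacylglycerol in droplets whose surface carries perilipins, which limit access of lipases to the stored fat. CIDE proteins sit on droplets and on lipid-loading membranes, and Cidec in particular drives the transfer of lipid from smaller droplets to larger ones. Adipose triglyceride lipase, the product of Pnpla2, removes the first fatty acid from a triacylglycerol, hormone-sensitive lipase, the product of Lipe, acts on the diacylglycerol that results, Abhd5 activates the first enzyme and G0s2 inhibits it. In adipose tissue insulin restrains this lipolysis, and several of these genes are known targets of the fasting receptor PPARA or of PPARG in liver.

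The libraries held 18449986 to 21827619 counts each. Levels are given as normalised read counts (CPM) after scaling by TMM, and levels of different genes are compared only as CPM per kb of exon. Log2 fold changes are insulin over vehicle. Vehicle replicate 2 stood apart from the other 5 libraries. Its deviations fell with the GC content of transcripts by 1.13 on the log2 scale per 10 percentage points, against slopes of −0.064 to 0.19 elsewhere, and it had 16470 genes with a count where the others had 18389 to 18874. Hepatocyte markers (6 genes) summed to 72845 to 166510 CPM with vehicle and 60242 to 76058 CPM with insulin, and vehicle replicate 2 had the highest sum. Most of that sum was Alb, at 138550 CPM in vehicle replicate 2. Alb, Ttr and Cyp2e1 were highest in that library, Apoa1 (3901 CPM) and Tat (714 CPM) were lowest there, and Cps1 lay between. Of 7 adipocyte markers, Lep and Ucp1 were at 0 counts everywhere, and Adipoq, Retn, Plin1 and Adig never exceeded 2 counts in a library. The 5 skeletal muscle markers also never exceeded 2 counts, with Acta1, Tnnt3 and Myl1 at 0. Summed markers of stellate cells lay at 151 to 223 CPM in vehicle and 119 to 198 CPM in insulin libraries, those of macrophages at 183 to 309 and 225 to 436 CPM, and those of endothelium at 105 to 206 and 128 to 139 CPM. None of the marker genes passed the criteria used below.

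Of the 10 genes, 1 passed the criteria that the study used for its calls, a log2 fold change of 0.35 or more in size and an unadjusted p under 0.05. It was G0s2, which was higher with insulin. These criteria were passed by 2.86% of the 13377 genes tested, 1.0% higher and 1.86% lower with insulin. After Benjamini-Hochberg adjustment over all 13377 genes (edgeR quasi-likelihood test), 0 members were under 0.05, as were 0% of all genes, and the smallest adjusted p among the members was 0.852. At an unadjusted p under 0.05 there was 1 member by edgeR, and likewise 1 by DESeq2 and 1 by voom. Of all 13377 genes, 383, 507 and 213 were under 0.05 by these tools in turn, which all used the same libraries. For 1 member, again G0s2, every insulin liver lay above every vehicle liver. The groups were separated in this way for 6.25% of all genes tested, and in the opposite direction, which 0 members showed, for 6.04%. Log2 fold changes were positive for 8 members and negative for Cidea and Abhd5, with a median of 0.21 against −0.017 over all genes. Without vehicle replicate 2, however, 4 were positive and the median was −0.10.

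**Figure D1:**
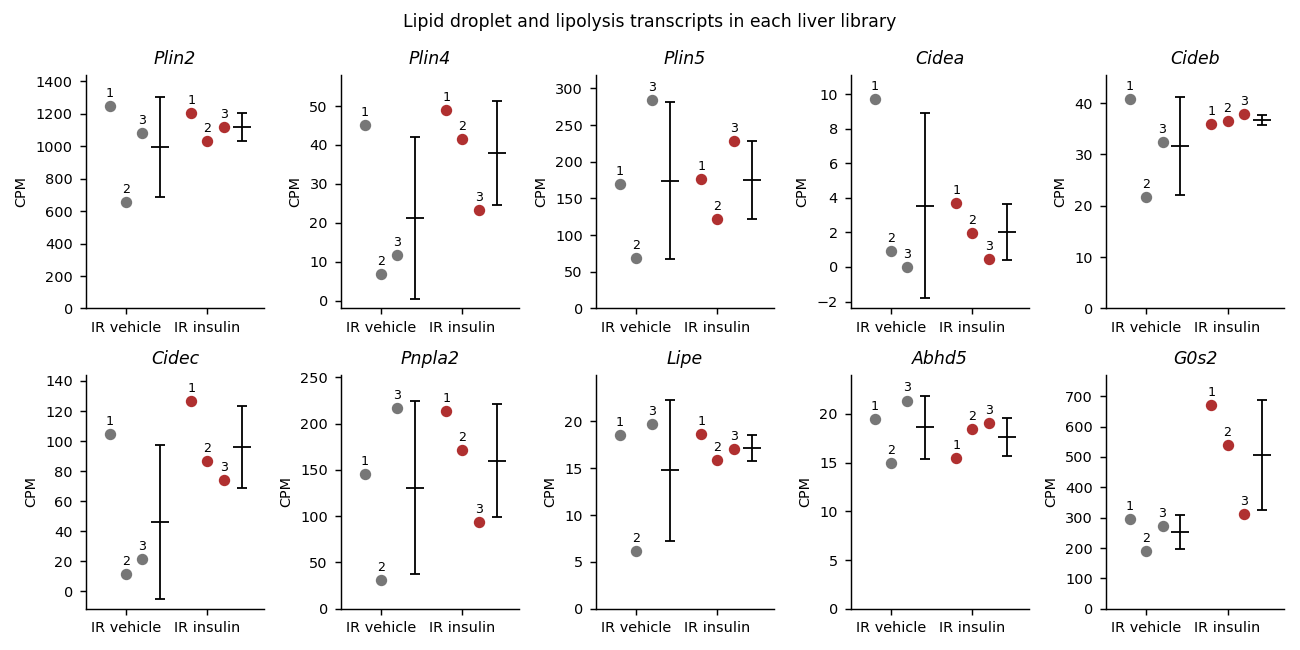
Level of each of the 10 transcripts in CPM (vertical axis, linear) in the 3 IR vehicle (grey) and 3 IR insulin (red) libraries, numbered by replicate, with the group mean ± SD as a bar beside the points. G0s2 is the 1 gene whose insulin points all lie above its vehicle points, and vehicle replicate 2 is the lowest point for 9 of the 10 genes.

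G0s2 was the most abundant member per kb of exon, at 437 CPM per kb over all 6 libraries, and Plin2 came next at 301. In the vehicle group alone these levels, 291 ± 63.7 and 284 ± 87.3 CPM per kb (SD, n = 3), did not differ beyond their spread. Plin5 followed at 83.8, Pnpla2 at 48.1, Cidec at 38.3 and Cideb at 23.0 CPM per kb. The ranges of Pnpla2 and Cidec across libraries overlapped, at 10.3 to 71.7 and 6.35 to 68.3 CPM per kb. Plin4 (5.13), Abhd5 (3.04), Lipe (2.72) and Cidea (2.50) were the least abundant, and their ranges over the 6 libraries overlapped as well. Exon length was the union of all annotated transcripts, which lowers the per-kb level of genes with long alternative exons such as Abhd5 and Plin2. The union was 3.512 kb for Plin2, whose longest transcript had 1888 bases, and 0.871 kb for G0s2, whose longest had 871 bases. The order of G0s2 and Plin2 thus holds only for union length.

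The sequences 250 bases upstream of the RefSeq start sites of G0s2, Pnpla2 and Plin2 are shown because G0s2 was the member past the criteria, Pnpla2 encodes the lipase that G0s2 inhibits, and Plin2 was the most abundant coat transcript. They were taken from RefSeq on GRCm38.p6 and are written 5′ to 3′ on the strand of the gene. Capitals mark matches to the searched motifs, a GC box (GGGCGG, or CCGCCC on the opposite strand) in G0s2 and Pnpla2 and the core nuclear receptor motif (AGGTCA, or TGACCT on the opposite strand) in Plin2. G0s2 lies at chr1:193273189-193273438 on the minus strand, Pnpla2 at chr7:141454938-141455187 on the plus strand and Plin2 at chr4:86670060-86670309 on the minus strand.
G0s2: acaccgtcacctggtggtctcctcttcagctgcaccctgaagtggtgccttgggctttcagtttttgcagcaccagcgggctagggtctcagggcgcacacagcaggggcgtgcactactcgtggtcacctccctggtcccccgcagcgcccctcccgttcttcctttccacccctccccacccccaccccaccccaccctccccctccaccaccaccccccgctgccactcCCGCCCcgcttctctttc
Pnpla2: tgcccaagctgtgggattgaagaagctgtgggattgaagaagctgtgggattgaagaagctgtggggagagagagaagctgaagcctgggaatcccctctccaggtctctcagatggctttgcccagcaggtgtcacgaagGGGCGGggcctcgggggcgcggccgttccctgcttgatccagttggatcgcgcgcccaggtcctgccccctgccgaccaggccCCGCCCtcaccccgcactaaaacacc
Plin2: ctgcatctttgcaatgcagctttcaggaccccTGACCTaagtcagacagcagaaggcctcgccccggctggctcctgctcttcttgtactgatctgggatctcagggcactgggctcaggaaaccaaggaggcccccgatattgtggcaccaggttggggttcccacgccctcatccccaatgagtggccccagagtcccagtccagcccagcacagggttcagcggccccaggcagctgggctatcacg
The GC box began 18 bases before the start site in G0s2 and 109 and 26 bases before it in Pnpla2, and the TGACCT of Plin2 began 218 bases before it. RefSeq promoters were matched for 9 of the 10 members and gave 12 promoters. GGGCGG, on either strand, was in 7 of these 12 (6 genes) against 32.7% of all 32851 promoters. AGGTCA was in 3 (Plin2, Plin5 and Abhd5) against 14.0%. The E-box CACGTG and the FoxO motif GTAAACA each stood in 1, both in promoters of Lipe, against 6.02% and 3.17% of all promoters, and TATAAA stood in 1, of Cideb, against 12.4%. The promoters of Plin4 and Cidec held none of these letters in this window. GC boxes in 1 Lipe promoter overlapped each other. A match is a description of letters and not a binding site.

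G0s2, the inhibitor of adipose triglyceride lipase, rose with insulin by the study's criteria. Its gene lies at chr1:193272161-193273217 on the minus strand and has 2 exons. It overlaps Lamb3, on the opposite strand, and shares 0 exonic bases with it. The level was 296, 191 and 274 CPM in vehicle replicates 1, 2 and 3 and 670, 541 and 312 CPM in insulin replicates 1, 2 and 3. All 3 insulin livers were above all 3 vehicle livers, but insulin replicate 3 exceeded vehicle replicate 1 only narrowly and the insulin livers were more spread than the vehicle livers. Means were 254 ± 55.5 and 508 ± 181 CPM (SD, n = 3), and the log2 fold change was 1.0 ± 0.34 (SE; unadjusted p = 0.0183, adjusted p = 0.852, edgeR). G0s2 is among the candidate genes that the study picked from these same libraries together with 2 public human datasets, so its direction here is not independent evidence. The study also measured its candidates by RT-PCR in insulin-injected IR mice, which is not part of the data used here. In bulk tissue, fewer cells of a type and less RNA per cell cannot be told apart. The log2 fold change was 0.62 with an offset for GC content, 0.76 without insulin replicate 1 and 0.95 without insulin replicate 2 (unadjusted edgeR p of 0.0776, 0.0865 and 0.0558), and the criteria were then not met. It stayed positive in all 14 alternatives, between 0.56 and 1.26, with adjusted p values of 0.506 to 0.9997.

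Pnpla2, which encodes adipose triglyceride lipase (chr7:141455198-141460743, plus strand, no overlapping gene), had levels of 145, 31.0 and 216 CPM in the vehicle livers 1, 2 and 3. In insulin replicates 1, 2 and 3 it was at 214, 171 and 94.0 CPM. The groups overlapped fully, with both the lowest and the highest liver in the vehicle group. The log2 fold change was 0.29 ± 0.62 (unadjusted p = 0.656, edgeR).

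Levels of the inhibitor and the lipase were set against each other within each liver. The ratio of G0s2 to Pnpla2, per kb, was 10.9, 10.9 and 11.5 in insulin replicates 1, 2 and 3. In vehicle replicates 1, 2 and 3 it was 7.08, 21.4 and 4.39. The 3 insulin livers lay close together although both transcripts differed among them by more than 2-fold, and the vehicle livers lay on either side. Vehicle replicate 2, with 505 Pnpla2 counts, gave the highest ratio, so the groups overlapped, and no test was run on the ratio. The ratio of the cofactor Abhd5 to Pnpla2, per kb, ran from 0.0501 to 0.245 in vehicle and from 0.0366 to 0.103 in insulin livers, which also overlapped.

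Abhd5, the cofactor of adipose triglyceride lipase, had the narrowest range of all members, 0.51 on the log2 scale over the 6 libraries, and 9.79% of genes had a smaller one. Its levels were 19.5, 15 and 21.4 CPM in vehicle and 15.4, 18.4 and 19.1 CPM in insulin replicates 1 to 3. The groups overlapped, with a log2 fold change of −0.077 ± 0.23 (unadjusted p = 0.750, edgeR). Abhd5 (chr9:122351608-122381524, plus strand) shares 950 exonic bases with the antisense gene A730085K08Rik, and whether counting used strand was not stated, so reads of the 2 genes cannot be told apart.

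Lipe, which encodes hormone-sensitive lipase (chr7:25379527-25398710, minus strand), was at 18.6, 6.14 and 19.7 CPM in vehicle and 18.7, 15.9 and 17.0 CPM in insulin replicates 1 to 3. Vehicle replicate 2 was far below the other 5 livers, which lay within a narrow band, and the groups overlapped. The log2 fold change was 0.21 ± 0.41 (unadjusted p = 0.614, edgeR) with all libraries and −0.15 without vehicle replicate 2. The same limit on strand holds for Lipe, which shares 918 exonic bases with the antisense gene 4732471J01Rik.

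Plin2, the perilipin that coats droplets in most non-adipose cells, was the member with the most counts, 10681 to 26752 per library. It lies at chr4:86648386-86670060 on the minus strand with no overlapping gene. Its levels were 1250, 656 and 1082 CPM in vehicle and 1204, 1030 and 1116 CPM in insulin replicates 1 to 3. The insulin livers lay inside the range of the vehicle livers, of which replicate 2 was lowest. Means were 996 ± 306 and 1117 ± 87.3 CPM (SD, n = 3), with a log2 fold change of 0.17 ± 0.30 (unadjusted p = 0.597, edgeR).

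Plin5, a perilipin of oxidative tissues that binds Abhd5 and adipose triglyceride lipase (chr17:56111601-56117596, minus strand), was at 170, 69.2 and 284 CPM in vehicle replicates 1 to 3. In insulin replicates 1 to 3 it was at 176, 122 and 228 CPM. The vehicle group held both the lowest liver, replicate 2, and the highest, replicate 3. The group means of 174 ± 108 and 175 ± 53.3 CPM (SD, n = 3) were nearly equal, with a log2 fold change of 0.0089 ± 0.48 (unadjusted p = 0.986, edgeR). That standard error leaves room for sizeable changes in either direction.

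Plin4 lies just beside Plin5, at chr17:56100591-56109803 on the minus strand, and encodes a perilipin known best from adipocytes. It was at 45.0, 6.94 and 11.8 CPM in vehicle and 49.0, 41.7 and 23.2 CPM in insulin replicates 1 to 3. Vehicle replicate 1 lay among the insulin livers, and vehicle replicates 2 and 3 lay below all of them. The log2 fold change was 0.84 ± 0.65 (unadjusted p = 0.235, edgeR).

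As shares of the summed CPM per kb of the 5 perilipins, Plin2 made up 76.8, 80.9 and 67.1% in vehicle replicates 1 to 3. In insulin replicates 1 to 3 its share was 74.9, 76.9 and 70.8%. Plin5 made up 14.4 to 29.6% in vehicle and 15.3 to 24.4% in insulin livers, and its share was highest in replicate 3 of each group. Plin3, a perilipin outside the set, held 2.85 to 5.94% and Plin4 0.444 to 1.89% over all libraries. Plin1, the perilipin of adipocytes, was at 0 counts in 5 libraries and at 2 counts in insulin replicate 2. The make-up of the coat transcripts thus overlapped between groups for each perilipin.

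Cidec, the CIDE protein that enlarges droplets and is abundant in fatty liver, had the largest positive log2 fold change of the set. Its gene lies at chr6:113424634-113435760 on the minus strand with no overlapping gene. The level was 105, 11.8 and 21.6 CPM in vehicle and 127, 86.7 and 74.2 CPM in insulin replicates 1 to 3. Vehicle replicate 1 lay within the insulin range, and vehicle replicates 2 and 3 were several times below every insulin liver. Means were 46.1 ± 51.1 and 95.9 ± 27.5 CPM (SD, n = 3), and the log2 fold change of 1.06 ± 0.73 did not pass the criteria (unadjusted p = 0.183, adjusted p = 0.852, edgeR).

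Cidec and Plin4 depended on vehicle replicate 1. Without that library the log2 fold change was 2.53 for Cidec (unadjusted p = 0.000661, edgeR) and 2.02 for Plin4 (unadjusted p = 0.00308, edgeR). Together with G0s2 (1.13, unadjusted p = 0.0274, edgeR), 3 of the 10 members then passed the study's criteria, all higher with insulin, where 4.48% of genes did. Groups were then separated, higher with insulin, for Plin4, Cideb, Cidec and G0s2, and for 15.8% of all genes. No adjusted p was under 0.05 in that fit, and the smallest among the members was 0.474. Without vehicle replicate 2 the log2 fold changes were 0.60 for Cidec and 0.42 for Plin4, and without vehicle replicate 3 they were 0.72 and 0.54.

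**Figure D2:**
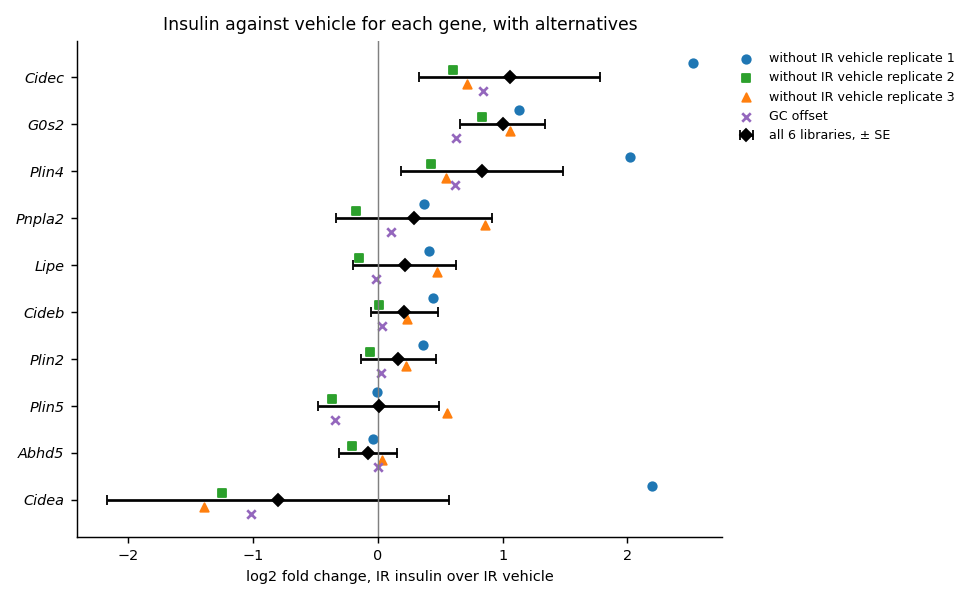
Log2 fold change of each gene, IR insulin over IR vehicle (horizontal axis), from all 6 libraries as diamonds with ± SE, with values without each vehicle replicate in turn and with the GC offset as smaller symbols. G0s2 stays right of 0 in all of these (0.62 to 1.13), Cidec and Plin4 move far right without vehicle replicate 1 (2.53 and 2.02), and Cidea changes sign without it (−0.80 to 2.2).

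Cideb, the CIDE protein of hepatocytes that takes part in loading very low density lipoprotein, was at 40.8, 21.7 and 32.4 CPM in vehicle replicates 1 to 3. In insulin replicates 1 to 3 it was at 35.9, 36.5 and 37.8 CPM. The insulin livers lay within 0.074 of each other on the log2 scale, and 4.49% of genes had a smaller range in that group. The vehicle livers lay on either side of them, so the groups overlapped, with a log2 fold change of 0.21 ± 0.27 (unadjusted p = 0.442, edgeR). Cideb (chr14:55754050-55758458, minus strand) shares 1136 bases of its 1.488 kb of exon with Nop9 on the opposite strand, so the counts may include reads of Nop9.

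Cidea, a CIDE protein best known from brown fat and found in fatty liver, had the lowest mean level per kb over the 6 libraries (chr18:67343604-67367785, plus strand). In the vehicle group alone its mean of 3.18 CPM per kb was above those of Abhd5 (3.12) and Lipe (2.51), within a spread of 4.82 (SD, n = 3). Cidea had 184, 15 and 0 counts in vehicle and 82, 45 and 10 counts in insulin replicates 1 to 3. These came to 9.73, 0.921 and 0 CPM in vehicle and 3.69, 1.95 and 0.461 CPM in insulin livers. Its range of 6.66 on the log2 scale was wider than that of 99.9% of genes, and the groups overlapped. The 0 counts of vehicle replicate 3 allow up to 3 counts, or 0.143 CPM, a limit that covers counting error only. The log2 fold change was −0.80 ± 1.37 (unadjusted p = 0.575, edgeR), and it was 2.2 (unadjusted p = 0.163, edgeR) without vehicle replicate 1.

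Among the 3 CIDE transcripts, Cidec made up 61.0, 29.2 and 34.8% of the summed CPM per kb in vehicle replicates 1 to 3. In insulin replicates 1 to 3 its share was 71.4, 64.0 and 60.8%. Cideb held 29.6, 67.0 and 65.2% in vehicle and 25.2, 33.6 and 38.6% in insulin livers, and Cidea held 0 to 9.42% over all libraries. Cidec was thus the leading CIDE transcript in every insulin liver and in vehicle replicate 1, and Cideb was in vehicle replicates 2 and 3. The Cideb share may include reads of Nop9, so its lead in those 2 livers is uncertain. The groups overlapped through vehicle replicate 1, whose Cidec share lay just above that of insulin replicate 3.

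**Figure D3:**
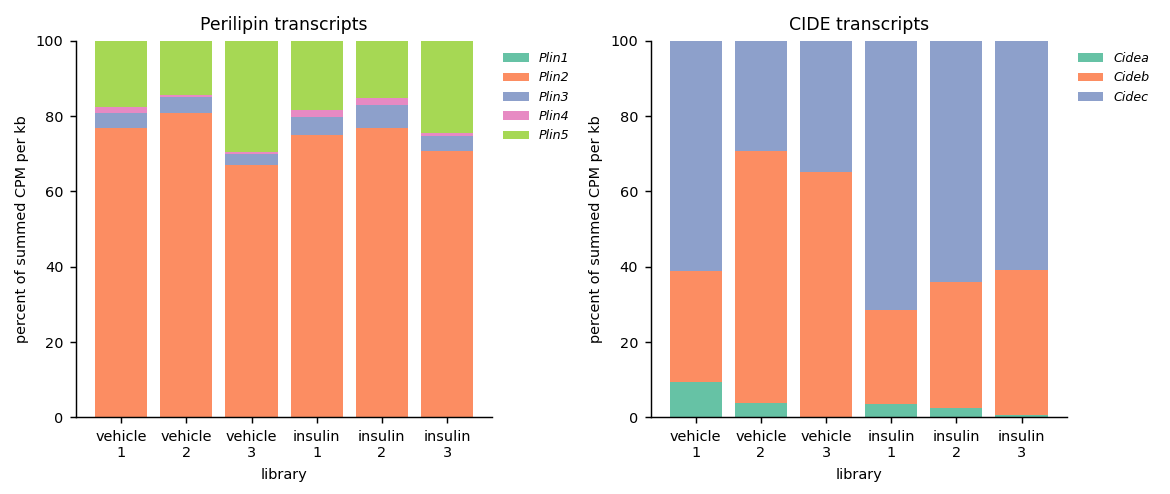
Share of each gene in the summed CPM per kb of the 5 perilipins and of the 3 CIDE genes (vertical axis, percent, stacked bars) in each of the 6 libraries (horizontal axis). Plin2 takes 67.1 to 80.9% of the perilipins everywhere, whereas Cidec takes 60.8 to 71.4% of the CIDE genes in the insulin livers and in vehicle replicate 1 (61.0%) and 29.2 and 34.8% in vehicle replicates 2 and 3.

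The vehicle livers differed from each other in more than 1 way. Vehicle replicate 1 was the highest of the 6 libraries for Plin2, Cidea and Cideb, where 6.44% of all genes were highest in that library. Vehicle replicate 3 was the lowest for Cidea and was also low for Cidec and Plin4, with log2 deviations from the median of the other 5 libraries of −4.39, −2.0 and −1.81. In the same liver Plin5, Pnpla2, Lipe and Abhd5 were at their highest of all 6 libraries, with deviations of 0.74, 0.58, 0.21 and 0.21. Of all genes, 23.4% were highest and 23.8% were lowest in vehicle replicate 3. Low Cidec, Plin4 and Cidea thus went with high lipase, cofactor and Plin5 transcripts in 1 liver, which is a description of that liver. Vehicle replicate 2 was the lowest for the 9 members other than Cidea, where 37.4% of all genes were lowest in that library.

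**Figure D4:**
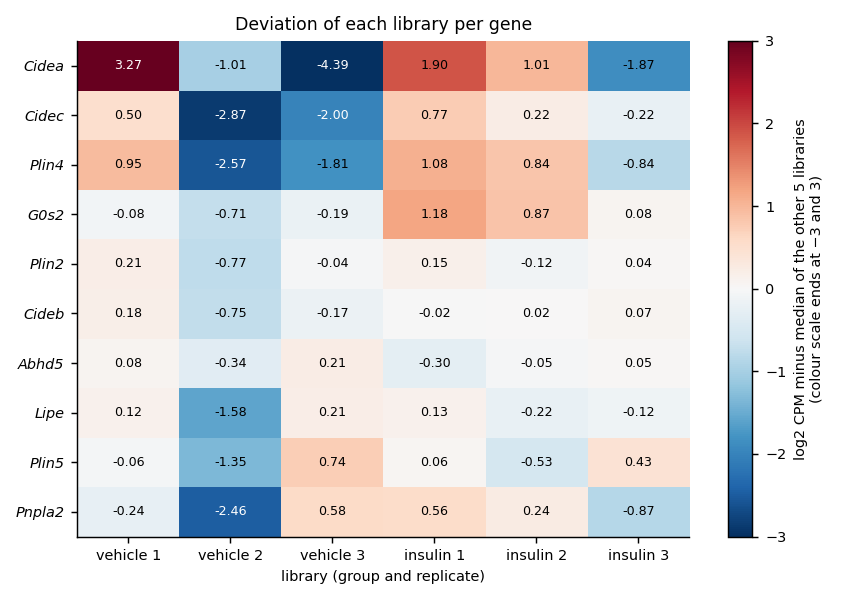
Deviation of each library from the median of the other 5 on the log2 CPM scale (colour, scale ending at −3 and 3) for each gene (rows) in each library (columns). Vehicle replicate 2 is low for all 10 genes (−0.34 to −2.87), and vehicle replicate 3 is low for Cidea, Cidec and Plin4 and high for Plin5 (0.74) and Pnpla2 (0.58).

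The low values of vehicle replicate 2 were set against its GC content trend. Genes within 1 percentage point of GC of each member had median deviations of 0.44 (for Abhd5, at 45.7% GC) to −1.29 (for Plin5, at 58.9% GC) in that library. Cidec deviated by −2.87 against −0.91 for genes of like GC, Plin4 by −2.57 against −0.86, Pnpla2 by −2.46 against −0.97 and Lipe by −1.58 against −0.85. These 4, with Abhd5 (−0.34 against 0.44), lay furthest below genes of like GC. Plin5 (−1.35 against −1.29), Cidea (−1.01 against −0.85), Cideb (−0.75 against −0.46) and Plin2 (−0.77 against −0.33) lay closer to such genes, and G0s2 lay above them (−0.71 against −0.90). What else set this library apart was not tested.

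**Figure D5:**
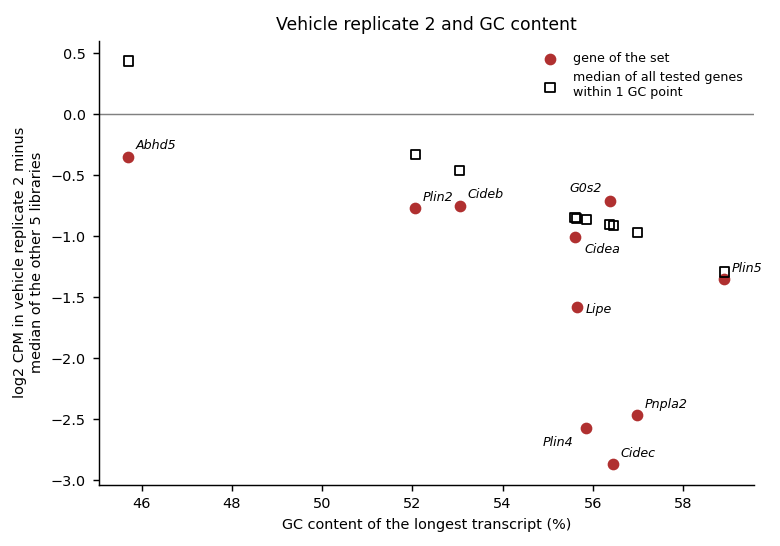
Log2 CPM in vehicle replicate 2 minus the median of the other 5 libraries (vertical axis) against GC content of the longest transcript in percent (horizontal axis), for the 10 genes (filled) and for the median of genes within 1 percentage point of GC (open). Cidec (−2.87), Plin4 (−2.57) and Pnpla2 (−2.46) lie furthest below their open points, and G0s2 (−0.71) lies above its own.

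Among the marker genes, Marco, a macrophage receptor, had the same order as Cidec across the vehicle livers, and Cfd, which encodes adipsin, had the same order as Cidea within each group. The endothelial markers Stab2, Pecam1, Clec4g and Cdh5 had the vehicle order of Plin5, Pnpla2, Lipe and Abhd5, highest in replicate 3 and lowest in replicate 2. Cd5l, Apoa1, Tat and Col1a1 had this order too, and the other tested markers did not. Many genes can share an order of 3 values. Marco was at 74.2, 7.37 and 9.11 CPM in vehicle and 135, 58.7 and 65.8 CPM in insulin replicates 1 to 3. Cfd was at 63.5, 26.6 and 0.143 CPM in vehicle and 154, 96.5 and 25.0 CPM in insulin livers, the 0.143 CPM standing for 3 counts. The whole macrophage list did not follow Marco, since its sum was highest among the vehicle livers in replicate 3. The other 6 adipocyte markers summed to 0 to 0.159 CPM in vehicle and 0.0450 to 0.173 CPM in insulin livers, so adipocyte transcripts other than Cfd were near 0 in every liver. Fitm1, a protein of droplet formation, and Pparg, which encodes a receptor that activates Cidec in fatty liver, were chosen after their values were seen. Fitm1 was at 63.8, 22.5 and 10.4 CPM in vehicle and 60.3, 61.3 and 40.4 CPM in insulin livers, and Pparg at 13.4, 7.86 and 5.48 CPM and at 10.4, 11.5 and 8.30 CPM. Both were lower in vehicle replicates 2 and 3 than in every other liver, as Cidec and Plin4 were, and neither passed the criteria (unadjusted p = 0.237 and 0.635, edgeR). With vehicle replicate 1 left out, 15.8% of all genes had both remaining vehicle livers below every insulin liver. The shared pattern is thus not particular to these genes, and a link between them was not tested.

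Of 14 other lipid droplet genes, 13 were tested and 1 passed the criteria, with 5 positive and 8 negative log2 fold changes and a median of −0.079. It was Hilpda, a droplet protein that like G0s2 inhibits adipose triglyceride lipase. Hilpda was at 4.07, 1.66 and 3.82 CPM in vehicle and 6.57, 5.45 and 6.64 CPM in insulin replicates 1 to 3. The groups did not overlap, and the log2 fold change was 0.96 ± 0.38 (unadjusted p = 0.0354, adjusted p = 0.852, edgeR). Plin3, a perilipin found in most cells, had the next smallest p (log2 fold change 0.58 ± 0.28, unadjusted p = 0.0717, edgeR). Mettl7b, the most abundant of the list at 294 CPM per kb, had a log2 fold change of −0.11 ± 0.28.

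Of 11 other lipolysis genes, 10 were tested and 0 passed the criteria by edgeR, 0 had an unadjusted p under 0.05, 1 passed by DESeq2 (Aadac) and 0 by voom. Log2 fold changes were positive for 3 and negative for 7, with a median of −0.31. Aadac, an esterase of the endoplasmic reticulum and the most abundant of the list at 352 CPM per kb, was at 415, 1063 and 555 CPM in vehicle and 403, 398 and 332 CPM in insulin replicates 1 to 3. Its groups did not overlap, with insulin lower, and the log2 fold change was −0.84 ± 0.37 (unadjusted p = 0.0510, edgeR). Lipa, the lysosomal acid lipase, had a log2 fold change of −0.40 ± 0.28 (unadjusted p = 0.196, edgeR).

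Of 8 regulators of these genes, all were tested and 0 passed the criteria or had an unadjusted p under 0.05 by edgeR, DESeq2 or voom. Their median log2 fold change was 0.0024. Foxo1, a transcription factor that insulin inhibits, had a log2 fold change of −0.45 ± 0.25 (unadjusted p = 0.114, edgeR). The coactivator Ppargc1a had −0.67 ± 0.43 (unadjusted p = 0.156, edgeR), and the most abundant regulator, Creb3l3 at 133 CPM per kb, had 0.19 ± 0.41. Of 10 other PPARA target genes, 1 passed the criteria, with 3 positive and 7 negative log2 fold changes and a median of −0.16. It was Fgf21, a hormone of the fasted liver, at 6.66, 2.70 and 5.87 CPM in vehicle and 9.91, 8.49 and 13.1 CPM in insulin replicates 1 to 3. The groups did not overlap, and the log2 fold change was 1.04 ± 0.38 (unadjusted p = 0.0247, adjusted p = 0.852, edgeR). Pdk4, which restrains glucose oxidation, had −0.67 ± 0.64 (unadjusted p = 0.329, edgeR).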

How the data were processed

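Libraries were prepared by the authors with NEBNext Ultra RNA reagents and run on an Illumina HiSeq, and reads were mapped to mm10 with Bowtie 2 (version 2.2.3). The deposited table holds whole-number read counts per gene and library, without normalization. The counting program, annotation and use of strand were not given in the sources used here. Groups and replicate numbers came from the sample labels, which give no date, lane or batch. Library totals ran from 18449986 to 21827619 counts, and the biological coefficient of variation was 0.357.

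Insulin and vehicle groups were compared in edgeR 4.0.16 (R 4.3.3; glmQLFit and glmQLFTest) with TMM, no covariate and filterByExpr (minimum count 10, minimum total 15), adjusted by Benjamini-Hochberg over 13377 genes. SEs came from the F statistic. Log2 CPM for deviations and ranges used a prior count of 2. DESeq2 1.42.0, voom of limma 3.58.1 with sample quality weights, other size factors and no filter were alternatives. So were a loess GC offset (span 0.5), a replicate block and leaving out each library. The authors had used an earlier version of DESeq2. The scripts were tested on simulated data with larger fold changes than the members had with all libraries, less spread and no GC trend. That test does not measure how the fits or the GC offset perform on these libraries. Of 54532 genes, 54495 were found by identifier in GENCODE M21 (GRCm38), which gave coordinates, exon lengths and GC content.

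The members and lists were chosen with earlier results of these data known. Named were all members and, per list, the 2 genes with the smallest p, the most abundant per kb and any other past the criteria, and markers at 0 or moving with a member. The values of 1 gene so named are left out, as are values of markers named only for their order. Any other gene was chosen after its values were seen. The reads carry no molecular identifiers and are not independent molecules, so limits from a count of 0 cover counting error only.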

Additional observations from a re-analysis of the deposited data

How the results depend on the processing

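The number of members past the study's criteria was 1 with all libraries and 0 with the GC offset. It was 3 with the replicate block (Plin4, Cidec and G0s2) and 2 with the block and GC offset (Plin4 and Cidec). In the same order, 383, 472, 321 and 335 of the 13377 genes tested passed. When single libraries were left out, 0 to 3 members passed. Over all genes, 99 to 1349 passed in those fits, of 13621 to 13760 tested. In all 14 alternatives, 0 members had an adjusted p under 0.05. The sample labels do not say whether same-numbered livers were paired. Correlations of deviations were −0.039, 0.069 and 0.017 for same-numbered livers. They ran from −0.11 to 0.089 for differently numbered livers, so they cannot decide this. With the block 203 genes passed the criteria as higher and 118 as lower with insulin, against 134 and 249 without it. The members' median log2 fold change was 0.032 with the GC offset, 0.43 with the block and 0.045 with both. It was −0.0062 with voom and −0.10 to 0.51 with single libraries left out. Members with separated groups numbered 1 to 4. The 4 were found without vehicle replicate 1, where 15.8% of all genes were separated in the same direction, higher with insulin. Other lipid droplet genes past the criteria numbered 2 with the GC offset, 2 with the block and 0 to 3 with single libraries left out. Other lipolysis genes numbered 1 with RLE, 1 with no filter, 1 with DESeq2 and 0 to 1 without single libraries, regulators 0 to 1, and other PPARA targets 0 with voom and 0 to 1 without single libraries. Directions turned for 7 members. With voom, Plin2 was at −0.057, Plin5 at −0.18, Cidea at 0.017, Cideb at −0.029 and Lipe at −0.035. With the GC offset, Plin5 was at −0.34, Lipe at −0.011 and Abhd5 at 0.0025, and with block and GC offset Plin5 was at −0.35 and Abhd5 at 0.040. Plin5 was also at −0.0045 with RLE and −0.0044 with DESeq2, and Cidea at 0.48 with the block. Without single libraries the ranges were −0.058 to 0.36 for Plin2, −0.37 to 0.55 for Plin5, −1.55 to 2.2 for Cidea, −0.17 to 0.86 for Pnpla2, −0.15 to 0.47 for Lipe and −0.21 to 0.034 for Abhd5. The cause of these changes was not tested. Each group held 3 livers, and the share of counting error in the spread was not tested.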
